A study of Mus musculus with 6 samples.

Results

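The 10 genes described here encode enzymes that convert steroid hormones into more or less active forms, and they were taken by symbol from the 34745 genes of the deposited table. They are the steroid 5α-reductases Srd5a1, Srd5a2 and Srd5a3, the 17β-hydroxysteroid dehydrogenases Hsd17b2, Hsd17b6 and Hsd17b11, the 11β-hydroxysteroid dehydrogenases Hsd11b1 and Hsd11b2, the aldo-keto reductase Akr1c14 and the aromatase Cyp19a1. Each symbol matched 1 row, and all 10 are protein-coding in GENCODE M21. No source used here names the genome build. It was taken as GRCm38, since 27699 of the 34267 genes whose identifier is in GENCODE M21 have the same start and end there, as do 4 of the 10 members, and all 10 overlap the gene of their identifier. The deposited table places the 5α-reductases Srd5a1 at chr13:69573449-69611442 (minus), Srd5a2 at chr17:74017706-74047916 (minus) and Srd5a3 at chr5:76140271-76155504 (plus). The dehydrogenases lie with Hsd17b2 at chr8:117701946-117759029 (plus), Hsd17b6 at chr10:127990941-128000678 (minus), Hsd17b11 at chr5:103989762-104021919 (minus), Hsd11b1 at chr1:193221634-193264075 (minus) and Hsd11b2 at chr8:105518746-105523984 (plus). Of the remaining genes the table has Akr1c14 at chr13:4049011-4090422 (plus) and Cyp19a1 at chr9:54165937-54193442 (minus). RNA was sequenced from the prostates of 6 male C57BL/6 mice, aged 6 to 8 weeks when the study began. The 3 mice of the T + E2 group carried a subcutaneous pellet of testosterone and oestradiol, renewed every month for 12 weeks, and the 3 mice of the CON group had a skin incision that was closed without a pellet. The hormones were given together, so effects of testosterone and of oestradiol cannot be told apart.

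Steroid-converting enzymes set how much active hormone reaches a receptor inside a cell. In the prostate, 5α-reductases turn testosterone into the more potent dihydrotestosterone, and Akr1c14 reduces dihydrotestosterone to the weak androstanediol. Hsd17b6 can oxidise androstanediol back, Hsd17b2 oxidises testosterone and oestradiol to their weaker ketones, and aromatase makes oestrogens from androgens. For glucocorticoids, Hsd11b1 mainly regenerates the active hormone with NADPH, and Hsd11b2 inactivates it.

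The Hsd17b and Hsd11b members belong to the short-chain dehydrogenases, whose active site holds a tyrosine and, after 3 other residues, a lysine. The coding sequence around this motif is shown because it is what these 5 members have in common as enzymes. Each line gives 45 coding bases from GENCODE M21 on GRCm38, with the tyrosine and lysine codons in capitals. They lie at chr8:117753200-117753244 (plus strand) for Hsd17b2, chr10:127994346-127994390 (minus) for Hsd17b6, chr5:104003285-104008598 (minus, across an intron) for Hsd17b11, chr1:193223707-193223751 (minus) for Hsd11b1 and chr8:105522779-105522823 (plus) for Hsd11b2.
Hsd17b2: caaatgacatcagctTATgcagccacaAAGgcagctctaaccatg
Hsd17b6: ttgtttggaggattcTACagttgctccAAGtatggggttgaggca
Hsd17b11: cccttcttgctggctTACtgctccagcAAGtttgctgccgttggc
Hsd11b1: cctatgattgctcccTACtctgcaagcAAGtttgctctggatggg
Hsd11b2: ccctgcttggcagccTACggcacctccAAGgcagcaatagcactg
The motif stood at codon 233 of 381 in Hsd17b2, 176 of 317 in Hsd17b6, 185 of 298 in Hsd17b11, 183 of 292 in Hsd11b1 and 232 of 386 in Hsd11b2. These totals do not count the stop codon. Hsd11b1 had another match to the pattern at codon 52, which is not shown.

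Promoters are shown for Hsd17b6 and Akr1c14, the called genes with an entry in the promoter table. Each line holds the 250 bases before a RefSeq start site on GRCm38.p6, with the 50 nearest bases in capitals. RefSeq gives Hsd17b6 a pair of start sites with overlapping windows, and the other window, chr10:128007509-128007758, is not shown. Those shown lie at chr10:128007612-128007861 (minus strand) and chr13:4059341-4059590 (plus).
Hsd17b6: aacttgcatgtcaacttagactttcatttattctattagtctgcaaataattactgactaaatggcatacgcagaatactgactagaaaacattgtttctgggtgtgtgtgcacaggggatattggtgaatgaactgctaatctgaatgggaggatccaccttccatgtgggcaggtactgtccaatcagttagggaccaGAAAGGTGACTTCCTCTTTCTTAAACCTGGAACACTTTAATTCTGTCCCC
Akr1c14: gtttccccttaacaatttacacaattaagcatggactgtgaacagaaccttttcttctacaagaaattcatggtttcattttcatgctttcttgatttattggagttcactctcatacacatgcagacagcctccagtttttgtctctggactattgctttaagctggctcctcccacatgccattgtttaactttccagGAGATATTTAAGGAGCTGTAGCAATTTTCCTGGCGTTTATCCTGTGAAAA
Both start sites of Hsd17b6 in RefSeq lie outside the interval of the deposited table, chr10:127990941-128000678, and that of Akr1c14 lies inside its interval, chr13:4049011-4090422. Of the 10 members, 8 had promoters in that table, in 11 windows of 300 bases, and Hsd17b2 and Hsd11b2 had none. The letters AGAACA of the androgen response element, searched on both strands, were in 19.0% of 32851 promoters and in none of the 11 windows. The letters GGTCA of the oestrogen response element were in 40.5% of those promoters. Among the members only Cyp19a1 held them, in a pair of its 3 windows, at 81 and 223 bases before the start site (positions -81 and -223).

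Expression was measured as reads counted per gene, with library totals of 14819273 to 16026544 in the CON group, against 14816146 to 16555549 in the T + E2 group. Values for a gene are given as TMM-scaled counts per 1000000 library counts (CPM). Levels of different genes are compared only as FPKM, which divides by library total and gene length and is not TMM-scaled. The 15580 genes that passed a filter on low counts went into edgeR's quasi-likelihood test, and p-values were adjusted over all of them by the Benjamini-Hochberg method, with log2 fold changes given as T + E2 over CON. A gene was called when its adjusted p was under 0.05 and its absolute log2 fold change over 1. A count of 3 in each library, worth 0.195 CPM on average in the CON group, was taken as the limit of detection, and limits cover counting error only. The prostate marker Hoxb13 (386 to 481 counts per 1000000 by library total) was present in all 6 mice. The summed level of 8 luminal epithelial markers was 38554 to 50968 counts per 1000000 in the CON group, against 12365 to 14572 in the T + E2 group. Seminal vesicle transcripts stood out in CON mouse 2, with 10583 counts per 1000000 over 8 markers, and T + E2 mouse 2, with 637.9, against 0.62 to 4.18 in the other 4 mice. Some results are also given below without these libraries.

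Of the 10 members, 9 had enough counts for the test. Hsd17b2, Hsd17b6 and Akr1c14 were called higher in the T + E2 group, and none was called lower by edgeR, DESeq2 or limma, with 0 lower at an unadjusted p under 0.05. Over all tested genes, 7.64% were called, 4.27% higher and 3.38% lower. Without the threshold on fold change, Hsd17b11 and Hsd11b1 joined them, so that 5 of 9 had an adjusted p under 0.05, all higher, against 19.6% of all tested genes (10.4% higher and 9.25% lower). The CON and T + E2 values of 6 members did not overlap, compared with 40.7% of all tested genes. Hsd17b2 and Hsd17b6, at 0 in all CON mice, passed the filter on low counts only through the T + E2 group. They could therefore only come out higher. Akr1c14, with 10, 7 and 6 counts in the CON mice, would not have passed from those mice alone. These genes are part of the counts above and of the median. The median log2 fold change was 0.57 over the 9 members and -0.0021 over all tested genes. These are whole-tissue values, in which a change in the number of cells of a type and a change in RNA per cell cannot be told apart.

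**Figure D1:**
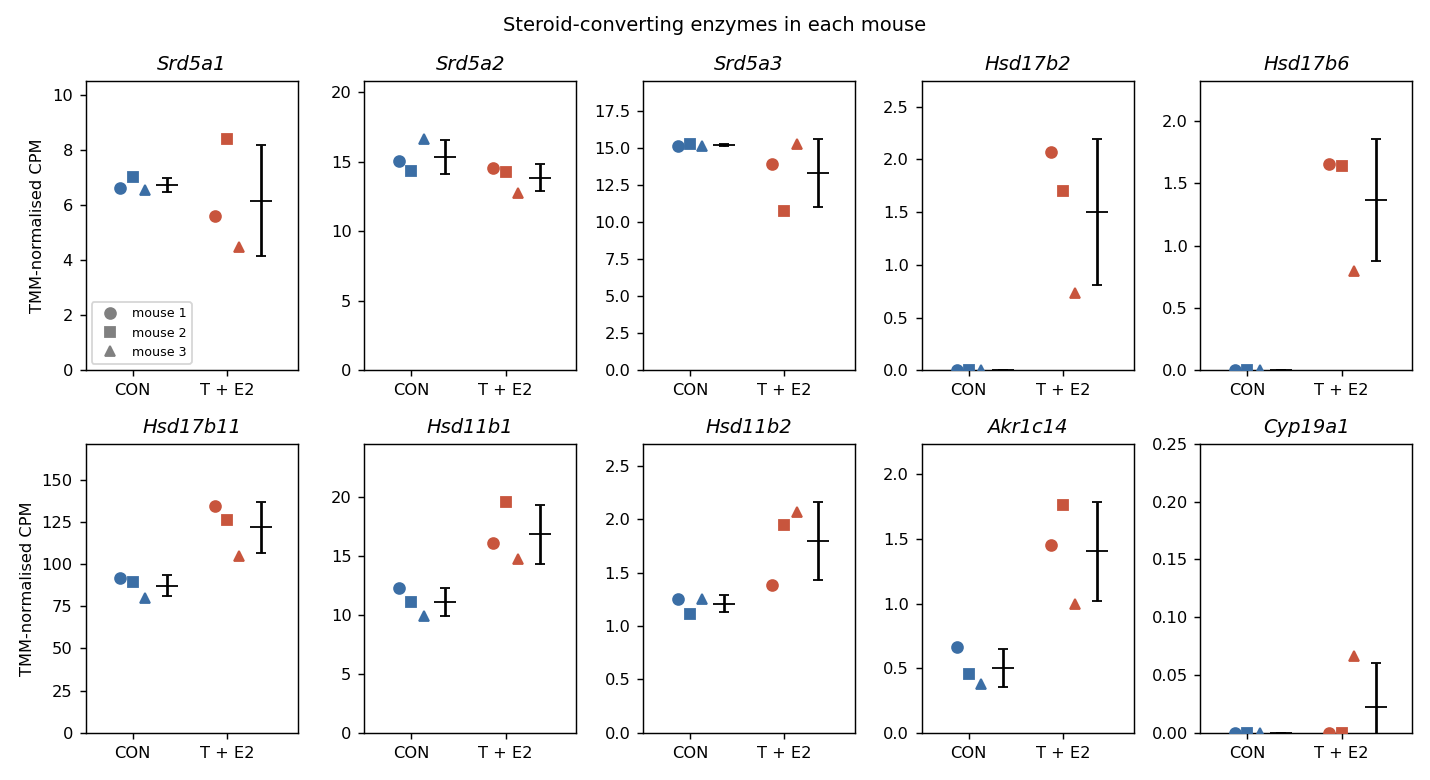
TMM-normalised CPM of the 10 enzyme genes in each mouse, with a panel for each gene, its own axis from 0, and mean and SD (n = 3) beside the points. Hsd17b2 and Hsd17b6 were at 0 in all CON mice, the points of Hsd17b11, Hsd11b1, Hsd11b2 and Akr1c14 do not overlap between the groups, and Cyp19a1 had 1 count in 1 mouse.

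None of the 5α-reductases passed the test in either direction. Srd5a2, the isozyme with high affinity for testosterone, had 15.1, 14.3 and 16.6 CPM in CON mice 1 to 3 and 14.6, 14.2 and 12.7 CPM in T + E2 mice 1 to 3. The groups overlapped, with T + E2 mouse 3 lowest and CON mouse 3 highest. The log2 fold change was -0.15 (standard error 0.12, edgeR adjusted p = 0.419), with a 95% interval of -0.42 to 0.13. Srd5a1, the more widely expressed isozyme, measured 6.62, 7.02 and 6.53 CPM in the CON group, against 5.60, 8.39 and 4.47 CPM in the T + E2 group. The CON values lay close together and inside the range of the T + E2 values. Its log2 fold change was -0.13 (standard error 0.24, edgeR adjusted p = 0.752, 95% interval -0.68 to 0.43). Srd5a3, which is also needed to make the dolichol used in N-glycosylation, was at 15.1, 15.3 and 15.1 CPM in the CON group, against 13.9, 10.8 and 15.3 CPM in the T + E2 group. T + E2 mouse 2 was the low value, and T + E2 mouse 3 matched the control mice. The log2 fold change was -0.19 (standard error 0.15, edgeR adjusted p = 0.39, 95% interval -0.53 to 0.15).

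Summed over the 3 isozymes, 5α-reductase level was 22.0, 21.4 and 23.2 FPKM in the CON mice, against 19.6, 20.4 and 18.4 FPKM in the T + E2 mice, without overlap. The difference was -0.19 on the log2 scale, and the exact two-sided permutation test over mice gave p = 0.1, the smallest p that 3 mice against 3 allow (adjusted over the 5 within-mouse measures, 0.25). Srd5a2 made up 80.5 to 83.4% of this sum in each CON mouse and 81.0 to 83.2% in each T + E2 mouse. Srd5a2 alone was also separate between the groups in FPKM, unlike in TMM-scaled CPM. These levels depend on the gene length used by the authors, which for Srd5a2 and Srd5a3 differs from the M21 exon length. With M21 lengths, an alternative chosen after seeing the data, Srd5a2 made up 61.0 to 65.3% of the sum in the CON mice, against 62.2 to 64.9% in the T + E2 mice, and the sum was 15.3 ± 0.393 against 13.4 ± 0.531 FPKM (SD, n = 3), again without overlap. The log2 ratio of Srd5a1 to Srd5a2 was -3.06 ± 0.157 in the CON group, against -3.08 ± 0.378 in the T + E2 group (SD, n = 3, 0.1 FPKM added to each value). These ratios overlapped and did not pass the exact permutation test (p = 0.9). With M21 lengths they ran from -2.16 to -1.84 in the CON mice, against -2.30 to -1.59 in the T + E2 mice (difference -0.02, exact permutation p = 0.9). Srd5a1 lies within Nsun2 on the opposite strand and shares no exon base with it. Nsun2 had a log2 fold change of 0.21 (edgeR adjusted p = 0.13). On its own strand Srd5a1 shares 476 exon bases with Gm17108, which had 7 counts over the 6 mice, and Srd5a2 shares 144 with CT025731.1, whose counts were not used here.

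The 17β-dehydrogenases held the largest changes among the members. Hsd17b2, which oxidises the 17β-hydroxyl group of testosterone and oestradiol, had no counts in any CON mouse and 30, 28 and 11 counts in T + E2 mice 1, 2 and 3. These counts correspond to 2.07, 1.70 and 0.733 CPM (mean 1.5 ± 0.692, SD, n = 3). Every T + E2 mouse was above the detection limit and mouse 3 was lowest. Measured against 3 counts in each CON library, the T + E2 mean was at least 7.73-fold higher (edgeR adjusted p = 0.0051). A stretch of 165 bases of Hsd17b2 is 96.4% identical to Mrpl36, a mitochondrial ribosomal protein gene. Mrpl36 had 363 to 434 counts in the CON mice, against 344 to 424 in the T + E2 mice, with a log2 fold change of -0.03.

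Hsd17b6, known for oxidising androstanediol and related androgens, was likewise at 0 in all CON mice, with 24, 27 and 12 counts in T + E2 mice 1 to 3. The T + E2 values were 1.66, 1.64 and 0.80 CPM (mean 1.37 ± 0.491, SD, n = 3). As with Hsd17b2, mouse 3 was lowest and still above the detection limit. Expression was at least 7.02-fold higher than the detection limit of the CON group (edgeR adjusted p = 0.0035). Without CON mouse 2 and T + E2 mouse 2, the libraries with seminal vesicle transcripts, the adjusted p was 0.0403 for Hsd17b2 and 0.0311 for Hsd17b6.

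Hsd17b6 lies in a cluster of related retinol dehydrogenase genes, and its transcript is 87.1 to 92.4% identical to 8 of them over 335 to 341 bases. Reads may therefore have been split or shared within the cluster, and how the authors' counting treated such reads is not given in the sources used here. Rdh16, a retinol and androgen dehydrogenase, had 5, 10 and 4 counts in the CON mice, against 41, 45 and 43 in the T + E2 mice. It was called higher, at 2.75 on the log2 scale (standard error 0.36, edgeR adjusted p = 0.0017). The mice of the T + E2 group were nearly equal for Rdh16, in contrast to their spread for Hsd17b6. Rdh7 had 0, 1 and 0 counts in the CON mice, against 9, 3 and 6 in the T + E2 mice, Rdh16f2 (BC089597 in the deposited table) had 0, 0 and 2 against 14, 5 and 5, and neither had enough counts for the test. Rdh1 had 12 counts over the CON mice and 6 over the T + E2 mice, and Rdh19 had none.

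**Figure D2:**
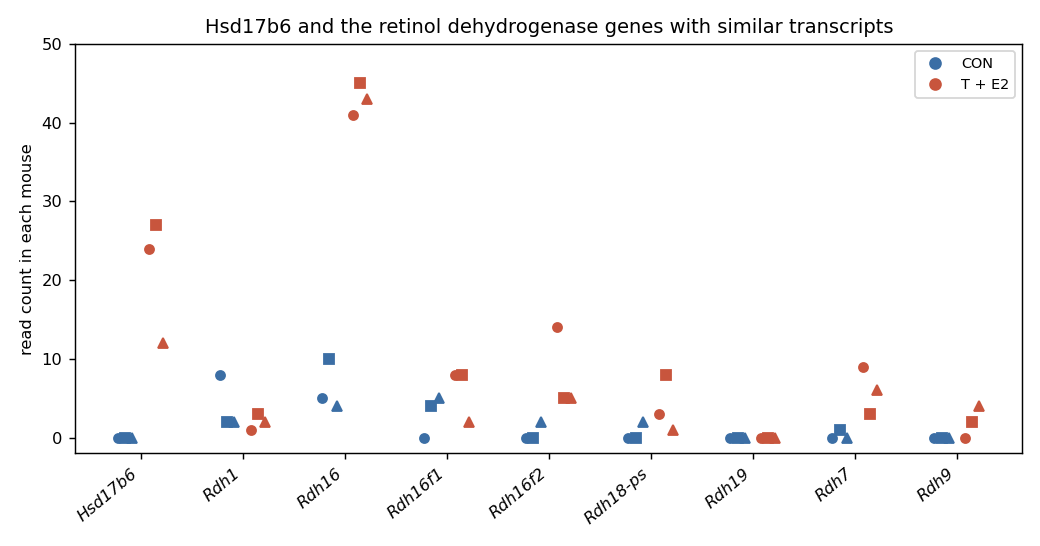
Read counts, not normalised, of Hsd17b6 and of the 8 genes with similar transcripts, with a point for each mouse (circle, mouse 1, square, mouse 2, triangle, mouse 3) in CON (blue) and T + E2 (red). Hsd17b6 was at 0 in the CON mice, against 12 to 27 in the T + E2 mice, and Rdh16 at 4 to 10 and 41 to 45.

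Hsd17b11, an enzyme of lipid droplets that can oxidise androstanediol, measured 91.7, 89.5 and 80.0 CPM in the CON mice, against 134.6, 125.9 and 105.1 CPM in the T + E2 mice. All T + E2 values were above all CON values, and mouse 3 was lowest in each group. The mean was 1.40 times the CON mean, and the change, 0.48 on the log2 scale (standard error 0.12, edgeR adjusted p = 0.0234), passed the adjusted p but not the fold threshold. The adjusted p rose to between 0.0579 and 0.0841 when CON mouse 2, CON mouse 3, T + E2 mouse 1 or T + E2 mouse 2 was left out, with log2 fold changes of 0.41 to 0.50. Hsd17b2 and Hsd17b6 could not be compared as a ratio in the CON mice, where both were at 0. In the T + E2 mice their log2 ratio was 0.19 ± 0.209 (SD, n = 3, 0.1 FPKM added). This value rests on the authors' gene lengths. With M21 lengths the T + E2 mean of Hsd17b2 (0.765 FPKM) lay below that of Hsd17b6 (0.852 FPKM).

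Hsd11b1, which regenerates active corticosterone, was higher in the T + E2 group and Hsd11b2, which inactivates it, did not pass the test. Hsd11b1 had 12.2, 11.1 and 9.86 CPM in the CON mice, against 16.1, 19.6 and 14.7 CPM in the T + E2 mice. The groups were separate, with T + E2 mouse 2 highest. The mean was 1.52 times that of the CON group, and the log2 fold change was 0.60 (edgeR standard error 0.15, adjusted p = 0.027). Leaving out CON mouse 2, CON mouse 3, T + E2 mouse 1 or T + E2 mouse 2 raised the adjusted p to between 0.0592 and 0.0901. Hsd11b1 lies within Lamb3, a laminin gene on the opposite strand, with no shared exon base, and Lamb3 had a log2 fold change of 0.21 (edgeR adjusted p = 0.274).

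Hsd11b2 was low, at 1.26, 1.12 and 1.26 CPM in the CON mice, against 1.38, 1.95 and 2.07 CPM in the T + E2 mice, from 17 to 32 counts per library. The groups did not overlap, with T + E2 mouse 1 near the controls. The log2 fold change was 0.57 (standard error 0.27, edgeR adjusted p = 0.179), and its 95% interval of -0.06 to 1.20 includes that of Hsd11b1. Within each mouse, the log2 ratio of Hsd11b1 to Hsd11b2 was 1.29 ± 0.176 in the CON group, against 1.37 ± 0.332 in the T + E2 group (SD, n = 3, 0.1 FPKM added). This ratio overlapped between the groups (difference 0.08, exact permutation p = 0.8).

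Akr1c14, the aldo-keto reductase that inactivates dihydrotestosterone, rose from a low level. It had 10, 7 and 6 counts in the CON mice, against 21, 29 and 15 in the T + E2 mice, or 0.662, 0.459 and 0.377 CPM against 1.45, 1.76 and 1.00 CPM. The lowest T + E2 mouse was above the highest CON mouse. The mean was 2.81 times the CON mean, and the fitted log2 fold change was 1.48 (standard error 0.37, 95% interval 0.63 to 2.34, edgeR adjusted p = 0.0268). This call rested on few reads. Its adjusted p was 0.0862 in DESeq2 and between 0.0724 and 0.099 without CON mouse 2, CON mouse 3, T + E2 mouse 1 or T + E2 mouse 2. Without CON mouse 2 and T + E2 mouse 2 together, the libraries with seminal vesicle transcripts, the adjusted p was 0.204 for Akr1c14, 0.162 for Hsd11b1 and 0.128 for Hsd17b11, with log2 fold changes of 1.23, 0.48 and 0.48. Akr1c14 shares 234 exon bases with the pseudogene Gm18857, whose counts were not used here.

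The ratio of the enzyme that makes dihydrotestosterone to the one that reduces it, Srd5a2 to Akr1c14, was 6.20, 6.42 and 6.75 on the log2 scale in the CON mice, against 5.36, 5.12 and 5.57 in the T + E2 mice. It was lower in all 3 T + E2 mice than in any CON mouse. The difference was -1.11, and the exact two-sided permutation test gave p = 0.1, its smallest possible value (0.25 adjusted over 5 measures). The size depends on the 0.1 FPKM added before the ratio, which is close to the CON level of Akr1c14, and was -0.40 with 1 FPKM added and -1.56 with 0.01.

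Cyp19a1, the aromatase gene, was practically not detected. It had 1 count in T + E2 mouse 3 and none in the other 5 mice, so it was not tested and no fold change is given. In the mice without a count, a level of up to 3 counts per library cannot be told from none.

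**Figure D3:**
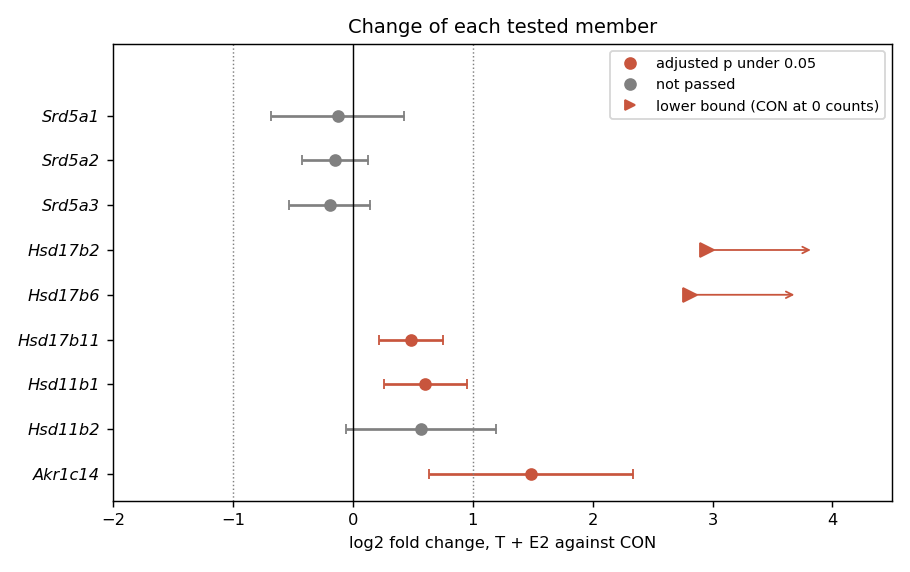
Log2 fold change of the 9 tested members with 95% intervals from the edgeR fit; dotted lines mark the fold threshold, and triangles with arrows mark lower bounds for the genes at 0 in all CON mice. The 5α-reductases lie just below 0 with intervals that include it, Hsd17b11 and Hsd11b1 lie at 0.48 and 0.60, and Akr1c14 lies at 1.48.

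Among themselves the members differed in level by over 2 orders of magnitude on the FPKM scale. In the CON group the order was Hsd17b11 (23.8 FPKM), Srd5a2 (18.2), Srd5a1 (2.09), Srd5a3 (1.91), Hsd11b1 (1.78), Hsd11b2 (0.664) and Akr1c14 (0.110), with Hsd17b2, Hsd17b6 and Cyp19a1 listed at 0. Of the neighbours above 0, only Srd5a3 and Hsd11b1 overlapped between mice. In the T + E2 group the order was Hsd17b11 (32.3 FPKM), Srd5a2 (16.0), Hsd11b1 (2.63), Srd5a1 (1.86), Srd5a3 (1.63), Hsd17b2 (1.15), Hsd11b2 (0.966), Hsd17b6 (0.964), Akr1c14 (0.300) and Cyp19a1 (0.0095). From Hsd11b1 to Hsd17b6, a run of 6 genes, each overlapped the next in the range over mice, so the order of neighbours is not resolved. Some genes further apart were separate. The lowest Hsd11b1 value (2.37 FPKM) was above the highest of Srd5a3 (1.92), Hsd17b2 (1.55), Hsd17b6 (1.17) and Hsd11b2 (1.13). The lowest values of Srd5a1 (1.39) and Srd5a3 (1.33) were above the highest of Hsd17b6 and Hsd11b2. Hsd17b11 stood above 89.5% of all tested genes in the CON group, and Akr1c14 above 1.83%. FPKM rests on the gene length that the authors used, which was 0.53 times the M21 exon length for Srd5a2 and 1.73 times for Srd5a3. It was also 0.52 times for Cyp19a1, 0.67 times for Hsd17b2, 1.42 times for Akr1c14 and 1.48 times for Hsd11b1. With M21 lengths the CON levels were 9.68 FPKM for Srd5a2, 3.31 for Srd5a3, 2.64 for Hsd11b1 and 2.34 for Srd5a1, which changes the order of the last 3. In the T + E2 group the M21 levels were 0.969 FPKM for Hsd11b2, 0.852 for Hsd17b6 and 0.765 for Hsd17b2, which also changes their order.

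**Figure D4:**
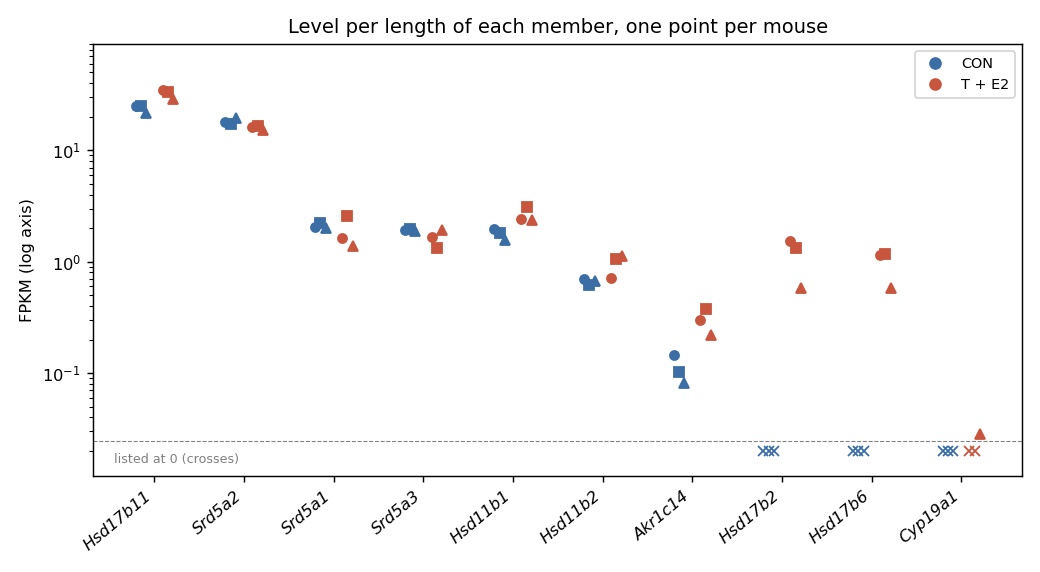
FPKM of each member on a log axis, with a point for each mouse (circle, mouse 1, square, mouse 2, triangle, mouse 3) in CON (blue) and T + E2 (red), and crosses for values listed at 0. Hsd17b11 and Srd5a2 lie between 15.1 and 34.7 FPKM in every mouse, and Hsd17b2 and Hsd17b6 are above 0 in the T + E2 mice only.

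Within the T + E2 group, mouse 3 was lowest for 7 of the 9 tested members. The exceptions were Srd5a3, lowest in mouse 2, and Hsd11b2, lowest in mouse 1. In the CON group mouse 3 was lowest for 5 of the 7 members with counts. Over the 6 mice, log2 CPM of Hsd17b2 followed that of Hsd17b6 with a Pearson r of 0.998, and the most similar of 14225 protein-coding genes were Pon3 (0.999), Ndnf (0.999) and G6pdx (0.998). For Hsd17b6 they were Ssr3, Hsd17b2 and Lcmt1 (0.998 each), and for Akr1c14 Tgfbr1, Mbnl2 and A230046K03Rik (0.999 each). Likeness of this kind was common, since 605, 682 and 389 genes had an r above 0.95 with Hsd17b2, Hsd17b6 and Akr1c14, and all points share the same 6 libraries and the difference between the groups.

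Other genes of steroid metabolism were taken from lists by role, 56 genes in all, of which 34 could be tested. Of these, 3 were called higher and none lower, and 6 were higher and 1 lower at an adjusted p under 0.05 alone, with a median log2 fold change of 0.18. These are 8.82% called and 20.6% with an adjusted p under 0.05, close to the 7.64% and 19.6% of all tested genes. The called genes were Rdh16, given above, and Ugt2b35 and Sult1e1 among 12 tested genes of hydroxylation and conjugation. Ugt2b35, a glucuronosyltransferase of a family that conjugates steroids, had 0.397, 0.853 and 0.691 CPM in the CON mice, against 35.9, 58.4 and 34.7 CPM in the T + E2 mice, the largest change in these lists (log2 fold change 6.04, edgeR adjusted p = 2.35e-05). Sult1e1, the oestrogen sulfotransferase, had 28.8, 25.3 and 27.5 CPM against 51.2, 93.9 and 61.1 CPM (log2 fold change 1.34, edgeR adjusted p = 0.0038). For both genes every T + E2 mouse was above every CON mouse.

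Of 7 tested genes that supply electrons or cofactor, 0 were called, against 7.64% of all tested genes. An adjusted p under 0.05 was reached by 28.6% of them, against 19.6% of all tested genes. G6pdx, which makes NADPH in the cytosol, rose by 0.93 (edgeR adjusted p = 0.00068). Me1, another source of NADPH, rose by 0.67 (edgeR adjusted p = 0.0027), and the other 5 did not pass the adjusted p. H6pd, which supplies NADPH to Hsd11b1, differed by 0.18 on the log2 scale (standard error 0.40, edgeR adjusted p = 0.792). Of the 14 genes that make steroids from cholesterol only 4 could be tested, none passed in edgeR (0 also at an unadjusted p under 0.05), and 7 had at most 3 counts in every mouse. The 5 markers of steroidogenic cells summed to 1.35 to 1.93 counts per 1000000 in all mice, with Hsd3b1 at 0. Among 9 other aldo-keto reductases 2 could be tested, Akr1c12 (log2 fold change 0.04) and Akr1c13 (0.06), and neither passed, in contrast to Akr1c14, a difference that was not tested.

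Values of the receptors of these hormones are given beside the enzymes. Of 9 steroid receptor genes, all tested, 2 were called lower, and Esr1, Pgr and Pgrmc1 passed the adjusted p alone as higher. These are 22.2% called and 55.6% with an adjusted p under 0.05, against 7.64% and 19.6% of all tested genes. Without CON mouse 2 or without T + E2 mouse 2, 1 was called. Esr2, oestrogen receptor β, had 7.67, 6.56 and 8.61 CPM in the CON mice, against 3.25, 3.22 and 3.47 CPM in the T + E2 mice (log2 fold change -1.20, edgeR adjusted p = 0.0033). Nr3c2, the mineralocorticoid receptor that Hsd11b2 shields from glucocorticoid, had a log2 fold change of -1.22 (edgeR adjusted p = 0.0349), but CON mouse 3 (14.51 CPM) and T + E2 mouse 3 (14.53 CPM) were alike, so that its groups overlapped.

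Of 12 genes that respond to glucocorticoid, beside Hsd11b1 and Hsd11b2, 1 was called higher and 6 had an adjusted p under 0.05, all higher. The median log2 fold change of the 12 was 0.51. The share called was 8.33%, close to the 7.64% of all tested genes. By adjusted p alone, the 6 of 12 compare with 19.6% of all tested genes. Scnn1a, an epithelial sodium channel subunit, had 22.0, 34.3 and 20.3 CPM in the CON mice, against 67.5, 56.5 and 96.1 CPM in the T + E2 mice (log2 fold change 1.52, edgeR adjusted p = 0.0047). The other 5 were Scnn1b, Fkbp5, Errfi1, Tsc22d3 and Sgk1. Fkbp5 is also in the list of genes that respond to dihydrotestosterone, given below. Which hormone the genes of the glucocorticoid list answered to in these mice was not tested. The number called was 2 without CON mouse 1, T + E2 mouse 1 or T + E2 mouse 2, and 3 without CON mouse 2. The 6 genes that did not pass were Per1, Zbtb16, Klf9, Cdkn1a, Ddit4 and Scnn1g. Ddit4, an inhibitor of mTORC1 signalling, had 88.4, 59.0 and 72.0 CPM in the CON mice, against 42.8, 58.3 and 55.9 CPM in the T + E2 mice, lower without overlap (log2 fold change -0.48, edgeR adjusted p = 0.0875). Scnn1g, the third subunit of the sodium channel, had a log2 fold change of -0.46 (edgeR adjusted p = 0.365), with overlapping groups.

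Of 14 genes that respond to dihydrotestosterone, beside Srd5a2, 2 were called higher and 3 lower, and 5 were higher and 3 lower at an adjusted p under 0.05 alone, with a median log2 fold change of 0.03. These are 35.7% called and 57.1% with an adjusted p under 0.05, against 7.64% and 19.6% of all tested genes. Pbsn and Tgm4, secretory genes of the luminal epithelium, had log2 fold changes of -3.29 and -2.91 (edgeR adjusted p = 2.45e-05 and 0.000158), and Sord of -1.23. Msmb rose by 1.10, the metalloreductase gene Steap4 by 1.03 (edgeR adjusted p = 0.000585), Fkbp5 by 0.95, Azgp1, which encodes zinc-α2-glycoprotein, by 0.86 (edgeR adjusted p = 0.000805) and Spink1 by 0.72. Tmprss2 (log2 fold change 0.03) did not pass.

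**Figure D5:**
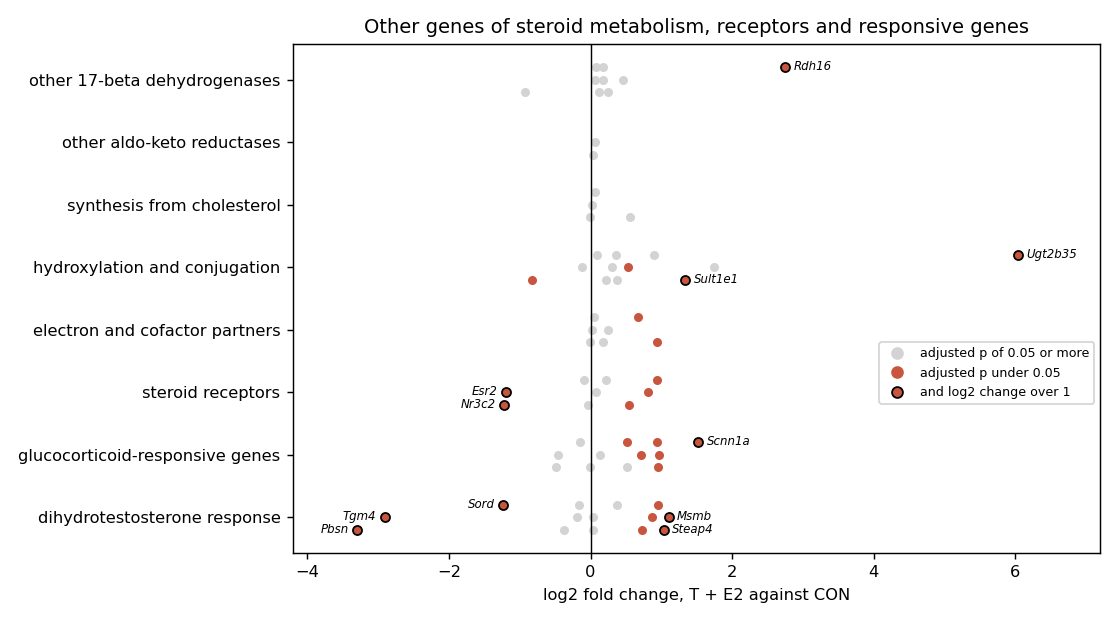
Log2 fold change of every tested gene of the other lists, with a row for each list and a point for each gene (grey, adjusted p of 0.05 or more, red, under 0.05, black edge, also over 1 in absolute log2 fold change). Ugt2b35 at 6.04 and Rdh16 at 2.75 lie far above the other metabolic genes, and the aldo-keto reductases and the genes of synthesis from cholesterol lie near 0 or have no red point.

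Some sets of markers of other tissues were separate between the groups, and others overlapped. The summed level of 7 epididymis markers was 0.472 to 2.02 counts per 1000000 in the CON mice, against 94.7 to 168.9 in the T + E2 mice, carried by Spink11, Eppin and Adam7, while Lcn5, Lcn8 and Lcn9 were at 0 in all mice and Crisp1 at 0.88 or less. The 5 urothelium markers summed to 430 to 658 in the CON mice, against 1389 to 1624 in the T + E2 mice, carried by Upk1a and Upk1b, and Upk3a was at 0 in all CON mice. The 5 smooth muscle markers summed to 3414 to 4150 in the CON mice, against 2932 to 3053 in the T + E2 mice, without overlap. The groups overlapped for the 4 fat markers (26.7 to 146.2 and 11.9 to 35.0) and the 4 basal markers (157.8 to 255.1 and 247.8 to 310.4), as they did for the sets of fibroblasts, endothelium, macrophages and skeletal muscle. The part of these cell types in the changes of Hsd17b2, Hsd17b6, Hsd17b11, Hsd11b1 and Akr1c14 was not tested.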

How the data were processed

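RNA of 6 prostates, 3 in each group, was sequenced by the authors from paired-end TruSeq libraries. The submitters' processing notes name TopHat, Bowtie2 and HTSeq without versions; the build, annotation and strand setting are not given in the sources used here. The authors deposited whole-number read counts per gene, not normalised, and FPKM, which the authors computed from those counts, the library total and a gene length. The gene length implied by count, FPKM and library total was the same across the mice within 0.1%. This held for all 17095 genes compared, those with counts in every mouse. No column of the table was without a sample.

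Groups were taken from the sample labels. Counts were scaled by TMM and tested with edgeR 4.0.16 in R 4.3.3 (filterByExpr, minimum count 10, minimum total 15, 15580 genes, glmQLFit and glmQLFTest, Benjamini-Hochberg adjustment over all tested genes). The standard error of a change was derived from its F statistic. Within-mouse ratios used log2(FPKM + 0.1), two-sided exact permutation tests over 6 mice, and adjustment over 5 measures. On data simulated for this comparison with 15387 tested genes, 93 of 98 genes changed by 1.5 on the log2 scale and 94 of 100 changed by 2 were recovered, with 2 false calls. The changed genes were drawn from all expression levels, with a spread that followed expression level only and no tissue carry-over in single mice. These rates are therefore not specific to genes with few counts, such as Hsd17b2, Hsd17b6 and Akr1c14. Mice of the same group differed beyond sampling noise (chi-square per degree of freedom 16.7 to 36.4), so each was kept as a replicate.

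The alternatives were DESeq2 1.42.0, limma 3.58.1 on log2(FPKM + 0.1) and log2(FPKM + 1), other scalings, no filter and an FPKM filter, a replicate block and each mouse left out. Positions are those of the deposited table, and the build was inferred as GRCm38 from their match to GENCODE M21. Similar transcripts were found with BLAST+ 2.17.0 in GENCODE M21, and promoters came from RefSeq. Named genes are all members, up to 4 called genes with the largest change in each list, and the 3 protein-coding genes closest to each called member, with genes named beside these chosen after their values were seen. The members and lists were chosen with earlier results of these data known. The limit of detection was 3 counts, and reads without molecular identifiers are not independent molecules. Some genes of these lists are not reported here.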

Additional observations from a re-analysis of the deposited data

How the results depend on the processing

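The number of members called was 3, and 2 with DESeq2, 1 with limma on log2(FPKM + 1), 0 with a filter at an FPKM of at least 1, which removes Hsd17b2, Hsd17b6, Akr1c14 and Hsd11b2, and 2 to 3 with each mouse left out (2 without CON mouse 2 or 3 or T + E2 mouse 1 or 2). The number with an adjusted p under 0.05 was 5, and 2 with the FPKM filter, 3 with each limma fit and 2 to 5 with each mouse left out, 2 without any of the same 4 mice. Hsd17b2 and Hsd17b6 had an adjusted p under 0.05 in all 15 settings that tested them, Hsd17b11 in 11 of 16, Hsd11b1 in 9 of 16 and Akr1c14 in 6 of 15, with the same direction in each. Without CON mouse 2 and T + E2 mouse 2 together, an alternative chosen after seeing the data, 2 members passed the adjusted p and 1354 genes in all (3061 with all mice), 1 receptor was called (2) and 3 glucocorticoid-responsive genes (1). That fit has 2 mice in each group. It called 809 genes in all (1191 with all mice) and 6 genes of the dihydrotestosterone response (5). The log2 fold change of Srd5a1 was -0.39 in that fit (-0.13 with all mice). With each mouse left out the log2 fold change of Srd5a1 ran from -0.42 to 0.059, changing sign without T + E2 mouse 3.

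Over all genes, 1191 were called, 561 with limma on log2(FPKM + 1), and 972 to 1152 with each mouse left out, while 1929 (without CON mouse 3) to 2741 passed the adjusted p alone, 1978 without T + E2 mouse 2. Receptors called numbered 1 and 0 in the limma fits with 0.1 and 1 FPKM added and 1 to 2 with each mouse left out, and glucocorticoid-responsive genes 1 to 3. The ratio of Srd5a2 to Akr1c14 differed by -0.40 with 1 FPKM added and -1.56 with 0.01. Other than the direct results of these settings, causes were not tested.

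The replicate numbers did not pair the mice, with correlations between mice of the same number of -0.05, 0.03 and 0.05. With the replicate block 2 members were called, Akr1c14 reaching an adjusted p of 0.0502, 4 passed the adjusted p, and 1 receptor was called.

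Members with fewer than 35 counts in every library, Hsd17b2, Hsd17b6, Hsd11b2, Akr1c14 and Cyp19a1, are limited by depth.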

Other observations

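H6pd, which supplies NADPH to Hsd11b1 in the endoplasmic reticulum, varied more between the control mice than between the groups. It was chosen after its values were seen. It had 154.7, 128.7 and 40.8 CPM in CON mice 1, 2 and 3 and 113.7, 113.3 and 139.4 CPM in the T + E2 mice. Hsd17b12 (38.0, 44.1 and 24.1 CPM in the CON mice) and Nr3c2 (28.7, 26.4 and 14.5 CPM) were also lowest in CON mouse 3, and the T + E2 values were 41.5, 44.9 and 39.1 CPM for Hsd17b12.

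Hsd17b14, an oxidative 17β-dehydrogenase, had 1.46, 1.90 and 1.13 CPM in the CON mice and 0.691, 0.912 and 0.733 CPM in the T + E2 mice. The groups did not overlap, and the difference did not pass the adjusted p (log2 fold change -0.93, standard error 0.32, edgeR adjusted p = 0.0767).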
